A study of Mus musculus with 9 samples.

Results

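The genes followed here are 10 ligands and receptors of vessel growth, chosen as a list by symbol and matched by Ensembl gene ID to the 55487 genes of the count table, and all 10 were among the 14851 genes tested. They are the ligands Vegfa, Vegfb and Pgf with their endothelial receptors Kdr and Flt1, the ligands Angpt1 and Angpt2 with their receptor Tek, and the ligand Apln with its receptor Aplnr. Each symbol matched 1 ID. The rule names the genes without a cut on any value, but they were chosen with earlier results of these data known. Counts and medians over the 10 genes therefore only describe them. Polyadenylated RNA of whole gastrocnemius muscle was sequenced from wild-type C57BL/6 mice, male per the labels, whereas the methods of the study describe females for the unloading procedure, and their age was not given in the sources used here. The 4 Control libraries came from mice in conventional cages, the 2 Unloading libraries from mice whose hindlimbs had borne no weight for 10 days, and the 3 Reloading libraries from mice returned to normal cage activity for 1 day after such unloading. The comparison of Reloading with Unloading addressed the transition from disuse to renewed loading.

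Vascular endothelial growth factors (VEGF) are secreted dimers that bind tyrosine kinase receptors on endothelial cells. Kdr carries most of the signal for endothelial growth and migration, whereas Flt1 binds VEGF-A more tightly with a weaker kinase and is also made as a short soluble form that traps the ligand. Angiopoietin 1 activates the receptor Tek and keeps vessels stable, angiopoietin 2 is a context-dependent antagonist released by endothelial cells of remodelling vessels, and apelin acts through a G protein-coupled receptor on sprouting vessels. In skeletal muscle, fibres are a main source of VEGF-A for the surrounding capillaries.

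The libraries held 9252443 to 19612101 counted read pairs, so that 1 pair was worth 0.0546 to 0.113 counts per 1000000 (CPM). The labelled tissue fitted its markers, since all 8 defining genes of the muscle fibre were counted in every library, with a summed level of 156589 to 170816 CPM in Control, 161763 to 167447 in Unloading and 112521 to 124976 in Reloading. Mitochondrial transcripts made up 9.36% to 10.6% of the counts in Control and Unloading and 6.49% to 6.75% in Reloading. The libraries Control 2 and Reloading 1 stood apart with skin transcripts, whose 6 markers summed to 132 CPM in Reloading 1 and 291 CPM in Control 2 against 2.31 to 4.20 CPM in the other 7 libraries. Leaving out both changed 1 call among the 10 genes, that of Pgf in Unloading. The scaling factors by trimmed mean of M-values (TMM) were 1.11 to 1.13 in Reloading and 0.928 to 0.960 in the other groups. Fewer cells of a type and less RNA per cell cannot be told apart in whole muscle.

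The bases just upstream of 4 genes are shown because these genes were higher in Reloading than in Unloading and because their windows differ in the short motifs they hold. Each line gives the 250 bases before a RefSeq start on the strand of the gene, in build GRCm38.p6, with matches to the searched motifs in capitals.
Vegfa, chr17:46032378-46032627, minus strand: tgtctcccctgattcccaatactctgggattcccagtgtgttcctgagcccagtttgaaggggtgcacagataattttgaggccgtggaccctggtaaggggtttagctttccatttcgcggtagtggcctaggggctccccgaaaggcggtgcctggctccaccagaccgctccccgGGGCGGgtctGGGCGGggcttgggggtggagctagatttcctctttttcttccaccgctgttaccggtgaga
Kdr, chr5:75978456-75978705, minus strand: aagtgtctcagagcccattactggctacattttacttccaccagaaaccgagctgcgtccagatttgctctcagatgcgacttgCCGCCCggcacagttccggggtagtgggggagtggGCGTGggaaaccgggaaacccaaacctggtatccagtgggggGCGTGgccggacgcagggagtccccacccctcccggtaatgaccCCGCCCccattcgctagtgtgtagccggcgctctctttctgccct
Flt1, chr5:147726012-147726261, minus strand: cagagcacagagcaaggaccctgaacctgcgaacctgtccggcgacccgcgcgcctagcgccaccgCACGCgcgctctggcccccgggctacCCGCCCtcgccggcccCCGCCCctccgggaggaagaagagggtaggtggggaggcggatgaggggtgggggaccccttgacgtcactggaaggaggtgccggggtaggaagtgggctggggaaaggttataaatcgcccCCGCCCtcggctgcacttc
Apln, chrX:48034854-48035103, minus strand: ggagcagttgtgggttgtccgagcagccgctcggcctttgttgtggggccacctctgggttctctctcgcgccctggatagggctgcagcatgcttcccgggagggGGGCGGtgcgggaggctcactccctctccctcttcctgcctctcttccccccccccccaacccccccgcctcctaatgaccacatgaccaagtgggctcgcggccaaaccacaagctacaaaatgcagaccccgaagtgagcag
The search covered 5 motifs on both strands, namely ACGTG and GCGTG (cores of the hypoxia response element, bound by hypoxia-inducible factors, HIF), GGGCGG (GC box), TGANTCA (AP-1 site) and AAGGTCA (core of the estrogen-related receptor element), and the motifs were chosen with the results known. RefSeq held 9 windows for 7 of the 10 genes, with a further start inside Vegfa and a further start of Pgf. No window was available for Angpt1, Angpt2 and Aplnr. Angpt2, which was also higher in Reloading than in Unloading, was therefore not searched. A GC box was present in the windows of Vegfa, Vegfb, Pgf, Kdr, Flt1 and Apln, and in 32.7% of all 32851 windows of the same length. The windows of these genes that held it had a GC content of 59.2% to 76.4%, against a median of 52.4% over all windows. The part of GC content in the matches was not tested. Kdr held GCGTG at 2 positions, 131 and 89 bases before its start, and Vegfb at 2 positions, 237 and 81 bases before its start. Flt1 and Pgf held it too, compared with 28.2% of all windows. The window at the annotated Vegfa start held neither hypoxia core. The window of the start 7206 bases inside the gene held both, 1 of them the ACGTG found in 16.6% of all windows. Whether the bases of that inner window also belong to an exon of Vegfa was not tested. The Apln window held a single GC box and the Tek window no match, and neither AP-1 sites (6.75% of all windows) nor the receptor element (4.08%) were found in any window of these genes. A match describes the letters of the window and is not a binding site.

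In Reloading 5 of the 10 genes, Apln, Kdr, Angpt2, Vegfa and Flt1, were higher than in Unloading, and none was lower. Apln was 14.7-fold, Kdr 3.54-fold, Angpt2 2.59-fold, Vegfa 1.57-fold and Flt1 1.35-fold higher. Of all 14851 genes, 18.5% were called higher and 19% lower in this comparison (edgeR quasi-likelihood test, adjusted p under 0.05), and the median log2 fold change was 0.54 for the 10 genes against 0.03 for all genes tested. Vegfb, Pgf, Angpt1, Tek and Aplnr did not pass. When the libraries were scaled by their totals alone, the median over all genes shifted from 0.03 to 0.27 and the estimate for Angpt1 changed sign. Vegfb, Tek and Aplnr then passed as well (8 higher and 0 lower). The shares of all genes given here are those of the TMM scaling, so this count has no share beside it. The call for Flt1 was lost without Unloading 2 (adjusted p 0.0536).

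In Unloading Vegfa, Vegfb and Kdr were lower than in Control, and Pgf was higher. Kdr was 2.06-fold, Vegfa 1.48-fold and Vegfb 1.47-fold lower, and Pgf 1.87-fold higher, while Flt1, Angpt1, Angpt2, Tek, Apln and Aplnr did not pass. Over all genes 4.4% were called higher and 5.5% lower. The log2 fold changes had a median of -0.29 over the 10 genes and -0.0038 over all. All 4 calls were lost without Unloading 1, which left 1 Unloading library, with adjusted p-values of 0.108 for Vegfa, 0.215 for Vegfb, 0.0881 for Kdr and 0.191 for Pgf. The Pgf call was also lost, with estimates close to the 0.90 of all libraries, in DESeq2 (0.92, adjusted p 0.0957), without Unloading 2 (0.94, adjusted p 0.0759), without Control 2 (0.85, adjusted p 0.0555) and without both libraries that held skin transcripts (0.85, adjusted p 0.0646).

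Compared with Control, Apln, Angpt2, Pgf, Kdr and Flt1 were higher in Reloading, and Vegfb was lower. The differences were 10.5-fold for Apln, 2.41-fold for Angpt2, 2.25-fold for Pgf, 1.72-fold for Kdr and 1.27-fold for Flt1, and Vegfb was 1.37-fold lower. These 5 higher and 1 lower calls stand beside 22.1% of all genes called higher and 21.3% called lower, and the median log2 fold change was 0.28 for the 10 genes and 0.01 for all. Scaling by totals alone moved the median over all genes to 0.25 and gave 8 higher and 0 lower calls. Vegfa, Angpt1 and Tek were added and Vegfb no longer passed (adjusted p 0.0972), and the shares of all genes above do not apply to this scaling. Both comparisons of Reloading share the same 3 Reloading libraries, and both comparisons with Control share the same 4 Control libraries.

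**Figure D1:**
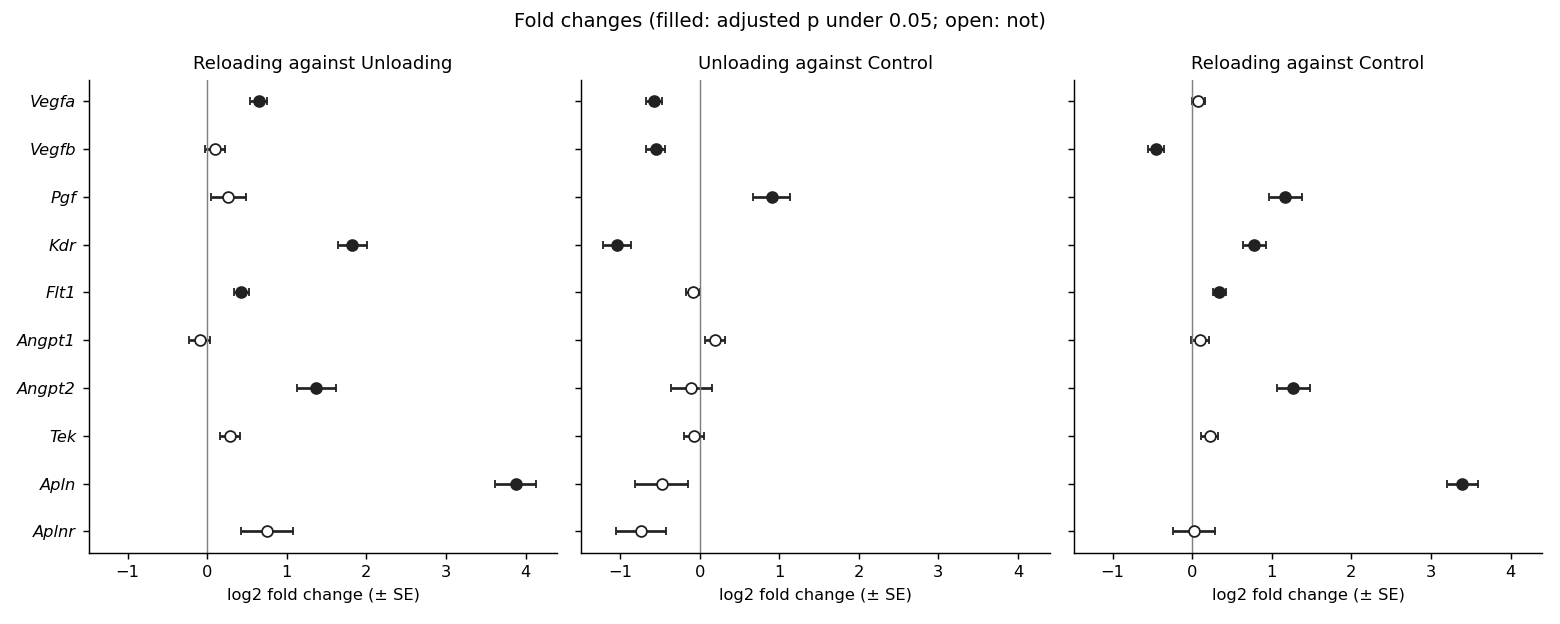
Log2 fold changes of the 10 genes (rows) with their SE in the 3 comparisons (panels), where filled circles passed an adjusted p of 0.05 and open circles did not. Apln stood farthest to the right in both comparisons of Reloading (3.87 and 3.40), and Kdr lay at -1.04 for Unloading and at 1.82 for Reloading against Unloading.

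Vegfa (ENSMUSG00000023951, chr17:46016993-46032369 in GRCm38), which encodes the main growth factor of endothelium, measured 203, 242, 249 and 226 CPM in Control, 137 and 172 CPM in Unloading and 242, 229 and 258 CPM in Reloading. Both Unloading libraries lay below every other library, and the Control and Reloading libraries overlapped. The log2 fold change was -0.57 ± 0.10 (SE) for Unloading against Control (adjusted p 0.00374) and 0.65 ± 0.11 for Reloading against Unloading (adjusted p 0.000245). Against Control the Reloading level differed by 0.08 (95% interval -0.11 to 0.26), which did not pass (adjusted p 0.491). Counts per gene do not separate the splice forms of VEGF-A.

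Vegfb (ENSMUSG00000024962, chr19:6982473-6987651), a ligand of Flt1, measured 82.8, 105, 95.6 and 82.9 CPM in Control, 52.8 and 71.5 CPM in Unloading and 70.2, 65.2 and 65.6 CPM in Reloading. Every Control library was above every library of the other groups, which overlapped each other. It was lower in Unloading (-0.55 ± 0.12, adjusted p 0.00935) and lower in Reloading (-0.45 ± 0.10, adjusted p 0.00247) than in Control. Between Reloading and Unloading the estimate was 0.10 (95% interval -0.16 to 0.36, adjusted p 0.545). In Reloading, Vegfb was below Control in every library, while Vegfa lay within or above the Control range.

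Pgf (ENSMUSG00000004791, chr12:85166635-85177790) encodes placental growth factor, which also binds Flt1, and was the least abundant ligand of this family, with 9 to 48 counts per library. Its level was 1.01, 1.16, 1.43 and 1.46 CPM in Control, 2.47 and 2.35 CPM in Unloading and 2.82, 2.68 and 3.18 CPM in Reloading. The 3 groups did not overlap and stood in the order Control, Unloading, Reloading. Pgf was higher in Unloading (0.90 ± 0.23, adjusted p 0.0249) and in Reloading (1.17 ± 0.21, adjusted p 0.000356) than in Control, and the difference of 0.27 ± 0.22 between Reloading and Unloading did not pass (adjusted p 0.365).

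**Figure D2:**
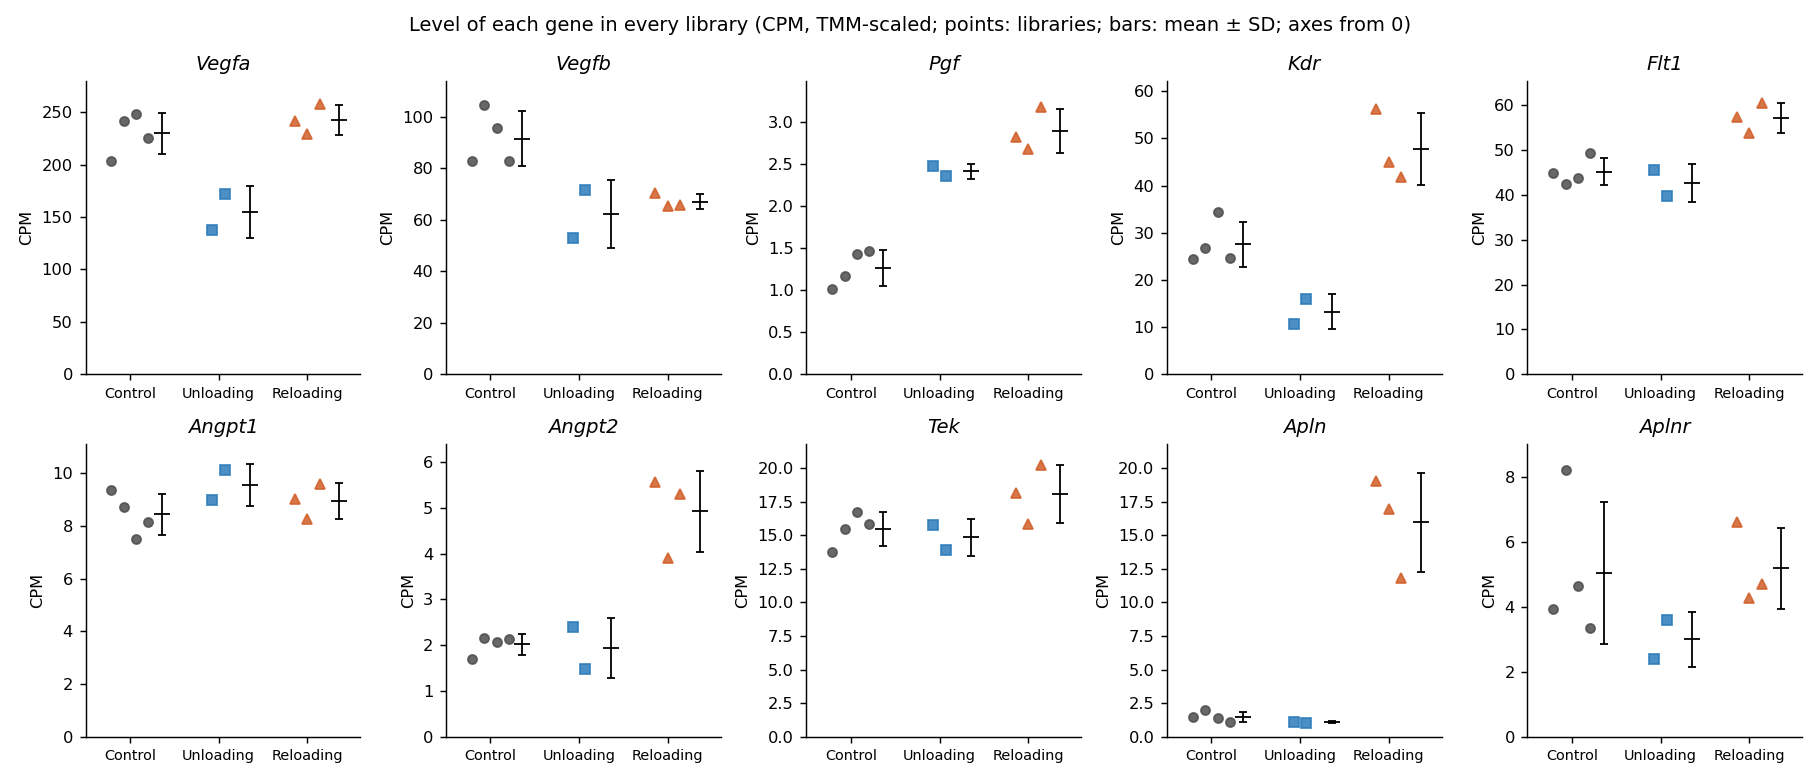
Level of each gene in CPM (vertical axes from 0) in the Control (circles), Unloading (squares) and Reloading (triangles) libraries, with the mean and SD of each group in black. Apln sits at 1.04 to 1.99 CPM in Control and Unloading and at 11.9 to 19.0 CPM in Reloading, and Kdr forms 3 levels with Unloading lowest and Reloading highest.

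Kdr (ENSMUSG00000062960, chr5:75932827-75978458), the main signalling receptor for VEGF-A, measured 24.4, 26.9, 34.4 and 24.5 CPM in Control, 10.6 and 15.9 CPM in Unloading and 56.3, 44.9 and 41.9 CPM in Reloading. The 3 groups did not overlap, with Unloading lowest and Reloading highest. The log2 fold change was -1.04 ± 0.18 for Unloading against Control (adjusted p 0.00304), 1.82 ± 0.18 for Reloading against Unloading (adjusted p 3.49e-06) and 0.78 ± 0.14 for Reloading against Control (adjusted p 0.000349). Among the 10 genes it had the largest fold change of those that passed in Unloading.

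Flt1 (ENSMUSG00000029648, chr5:147561604-147726011), the high-affinity receptor for VEGF-A, VEGF-B and placental growth factor, measured 45.0, 42.5, 43.7 and 49.4 CPM in Control, 45.6 and 39.7 CPM in Unloading and 57.4, 53.8 and 60.5 CPM in Reloading. Every Reloading library was above every other library, and Control and Unloading overlapped. The log2 fold change was 0.43 ± 0.09 against Unloading (adjusted p 0.00206) and 0.34 ± 0.08 against Control (adjusted p 0.00218). Unloading differed from Control by -0.09 (95% interval -0.27 to 0.10, adjusted p 0.584). The membrane and the soluble form of Flt1 share a gene and were counted together.

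Angpt1 (ENSMUSG00000022309, chr15:42424723-42676977), the stabilising ligand of Tek, measured 9.36, 8.70, 7.50 and 8.15 CPM in Control, 8.98 and 10.1 CPM in Unloading and 9.03, 8.24 and 9.60 CPM in Reloading. All 3 groups overlapped, and no comparison passed (log2 fold changes of 0.19 in Unloading against Control and of -0.10 and 0.10 in Reloading against Unloading and Control). The widest 95% interval among them ran from -0.38 to 0.19, for Reloading against Unloading. An exon of Angpt1 overlaps an exon of Gm17473 on the opposite strand, which held 27 counts over all libraries, and the unstranded counting cannot tell their reads apart there.

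Angpt2 (ENSMUSG00000031465, chr8:18690263-18741562), which encodes the ligand of remodelling vessels, measured 1.69, 2.16, 2.07 and 2.14 CPM in Control, 2.40 and 1.48 CPM in Unloading and 5.56, 3.91 and 5.30 CPM in Reloading. Every Reloading library was above every other library, whereas the Unloading libraries lay on both sides of the Control range. It was higher in Reloading than in Unloading (1.37 ± 0.24, adjusted p 0.000492) and than in Control (1.27 ± 0.20, adjusted p 0.000143), on 15 to 32 counts per library in the lower groups and 54 to 80 in Reloading. Unloading against Control gave -0.10 ± 0.26 (adjusted p 0.842). Angpt2 lies within an intron of Mcph1 on the opposite strand, which held 40 to 103 counts per library, and their exons do not overlap.

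Tek (ENSMUSG00000006386, chr4:94739289-94874976), the receptor of both angiopoietins, measured 13.8, 15.5, 16.7 and 15.9 CPM in Control, 15.8 and 13.9 CPM in Unloading and 18.1, 15.8 and 20.2 CPM in Reloading. Reloading 2 lay within the Control range, and the other Reloading libraries lay above it. The estimates of 0.29 ± 0.13 for Reloading against Unloading (adjusted p 0.0843) and 0.22 ± 0.11 for Reloading against Control (adjusted p 0.111) did not pass, and the former passed without Reloading 2 (0.37, adjusted p 0.0445).

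Apln (ENSMUSG00000037010, chrX:48025146-48034853), which encodes the precursor of the apelin peptides, measured 1.47, 1.99, 1.43 and 1.12 CPM in Control, 1.12 and 1.04 CPM in Unloading and 19.0, 17.0 and 11.9 CPM in Reloading. The lowest Reloading library, with 179 counts, was far above the highest of the other libraries, which held 13 to 24 counts. The log2 fold change was 3.87 ± 0.26 against Unloading (adjusted p 7.09e-08) and 3.40 ± 0.20 against Control (adjusted p 8.67e-09), which was the largest among the 10 genes in either comparison. Over all 18 alternative analyses the fold change against Unloading lay between 3.73 and 4.12. Unloading against Control gave -0.48 (95% interval -1.18 to 0.22, adjusted p 0.39).

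Aplnr (ENSMUSG00000044338, chr2:85136225-85139923), the apelin receptor, measured 3.95, 8.21, 4.64 and 3.35 CPM in Control, 2.40 and 3.61 CPM in Unloading and 6.61, 4.27 and 4.70 CPM in Reloading. Within their groups the highest values were those of Control 2 and Reloading 1, the libraries with 291 and 132 CPM of skin markers, and the part of skin in these values was not tested. Reloading was above Unloading in every library, but the estimate of 0.75 ± 0.32 did not pass (adjusted p 0.081), nor did -0.73 ± 0.31 for Unloading against Control (adjusted p 0.156) or 0.02 ± 0.26 for Reloading against Control (adjusted p 0.951). Without the libraries holding skin transcripts the first estimate was 0.55 (adjusted p 0.0953) and the second was -0.39 (adjusted p 0.331). Both calls changed with the setting. Reloading against Unloading had adjusted p-values from 0.0063 to 0.366 over the alternatives, and Unloading against Control passed without a filter on low counts (-0.69, adjusted p 0.0189). With the description numbers as a replicate block the estimates were 0.94 (adjusted p 0.00902) and -0.94 (adjusted p 0.0162), and both passed.

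Per length, Vegfb and Vegfa were far above the other 8 genes in each group. In Control the level per kilobase of exon was 57.0 ± 6.63 (SD, n = 4) CPM for Vegfb and 53.6 ± 4.67 for Vegfa, followed by Flt1 with 3.34 ± 0.223, Tek with 3.28 ± 0.264 and Kdr with 3.05 ± 0.520. Vegfa and Vegfb overlapped each other, as did these 3 receptors, and Vegfa was 16.0 times the level of Flt1. Angpt1 (1.62 ± 0.152) and Aplnr (1.36 ± 0.589) came next and overlapped, and Angpt2, Apln and Pgf closed the order with 0.546 ± 0.0595, 0.476 ± 0.115 and 0.436 ± 0.0738, again overlapping.

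The order shifted among the receptors and the low ligands. In Unloading, Kdr stood below Tek and Angpt1, at 1.47 ± 0.413 (n = 2), and overlapped Angpt1 (1.83 ± 0.153) but no longer Tek (3.15 ± 0.287). In Reloading, Kdr (5.28 ± 0.845, n = 3) and Apln (5.07 ± 1.17) followed Vegfa and Vegfb and overlapped each other, so that Apln moved from the last place in Unloading (0.343 ± 0.0190) to the level of the receptors. The Angpt1 level was 2.96 times that of Angpt2 in Control and 1.29 times in Reloading. Vegfa (56.7 ± 3.31) and Vegfb (41.7 ± 1.74) no longer overlapped in Reloading.

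**Figure D3:**
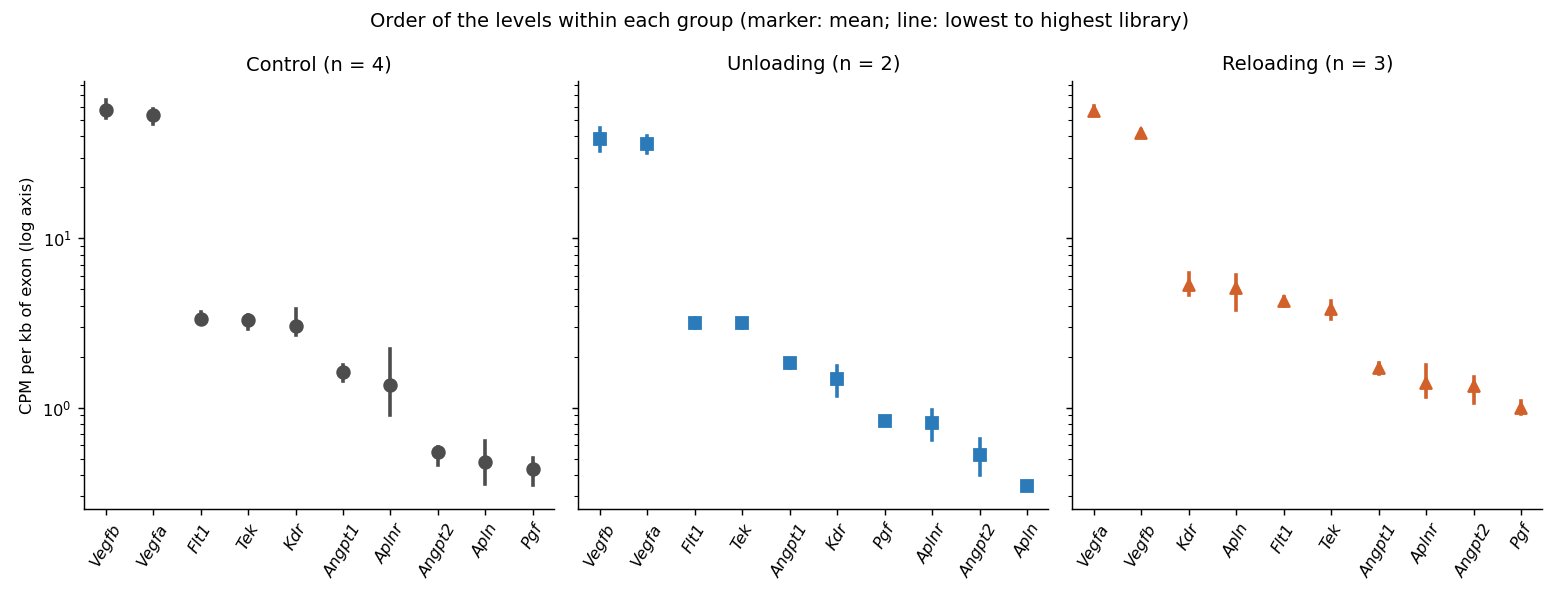
Mean level per kilobase of exon (vertical log axis, CPM per kb) of the 10 genes in each group, in falling order, with lines from the lowest to the highest library. Vegfa and Vegfb lead in each group, at 36.1 to 57.0 CPM per kb, and Apln stands last in Unloading and next to Kdr in Reloading.

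Ratios within a library do not depend on how libraries were scaled, and each was taken as a log2 ratio of CPM and compared between groups only. The Vegfa to Vegfb ratio was 1.21 to 1.44 in Control, 1.27 and 1.37 in Unloading and 1.78 to 1.97 in Reloading, so that every Reloading library was above every other library, by 1.45-fold over Unloading. The Angpt2 to Angpt1 ratio was -2.37 to -1.78 in Control, -1.84 and -2.66 in Unloading and -1.05 to -0.68 in Reloading, a rise in the mean of 1.39 on the log2 scale over Unloading without overlap. The Apln to Aplnr ratio was 1.59 ± 0.33 (SD, n = 3) in Reloading, -1.33 ± 0.47 (n = 2) in Unloading and -1.59 ± 0.27 (n = 4) in Control, and no Reloading library overlapped the others. The Flt1 to Kdr ratio was highest in Unloading (2.09 and 1.31), above Control (0.35 to 1.01) and Reloading (0.03 to 0.53).

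Exact two-sided permutation tests over libraries, 24 in all, cannot pass 0.05 with these group sizes. The smallest p they allow is 0.0571 between Reloading and Control, 0.133 between Unloading and Control and 0.2 between Reloading and Unloading. The ratios Angpt2 to Angpt1, Vegfa to Vegfb and Apln to Aplnr gave that smallest exact p of 0.0571 for Reloading against Control, with an adjusted p of 0.228.

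Receptor levels were also set against the mean log2 CPM of 19 other pan-endothelial genes. The geometric mean of these genes was 8.67 to 11.1 CPM in Control, 9.22 and 9.78 CPM in Unloading and 15.6 to 18.4 CPM in Reloading. Relative to them, Kdr was 1.34 to 1.64 on the log2 scale in Control, 0.14 and 0.80 in Unloading and 1.43 to 1.62 in Reloading. The Kdr ratio in Unloading was 2.03-fold below that in Control without overlap (exact permutation p 0.133, the smallest possible, adjusted p 0.3). In Reloading the Kdr ratio differed from Control by 0.01 (exact permutation p 0.971).

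The other receptors kept a different order. Relative to the same genes Flt1 was 1.65 to 1.96 in Reloading, below Unloading (2.11 and 2.23) and Control (1.98 to 2.52). Tek was -0.04 to 0.38 in Reloading, below Unloading (0.61 and 0.71) and Control (0.55 to 0.89). Aplnr was -1.89 to -1.44 in Reloading and -1.31 to -0.35 in Control, while Unloading (-1.94 and -1.30) overlapped both. Flt1, Tek and Aplnr were 1.36-fold, 1.48-fold and 1.60-fold lower in Reloading than in Control by this measure. Each had the smallest exact permutation p of 0.0571, with an adjusted p of 0.228. The pan-endothelial genes were themselves higher in Reloading for 17 of 19. In CPM Flt1 was called higher than in Control, and Tek and Aplnr did not pass.

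**Figure D4:**
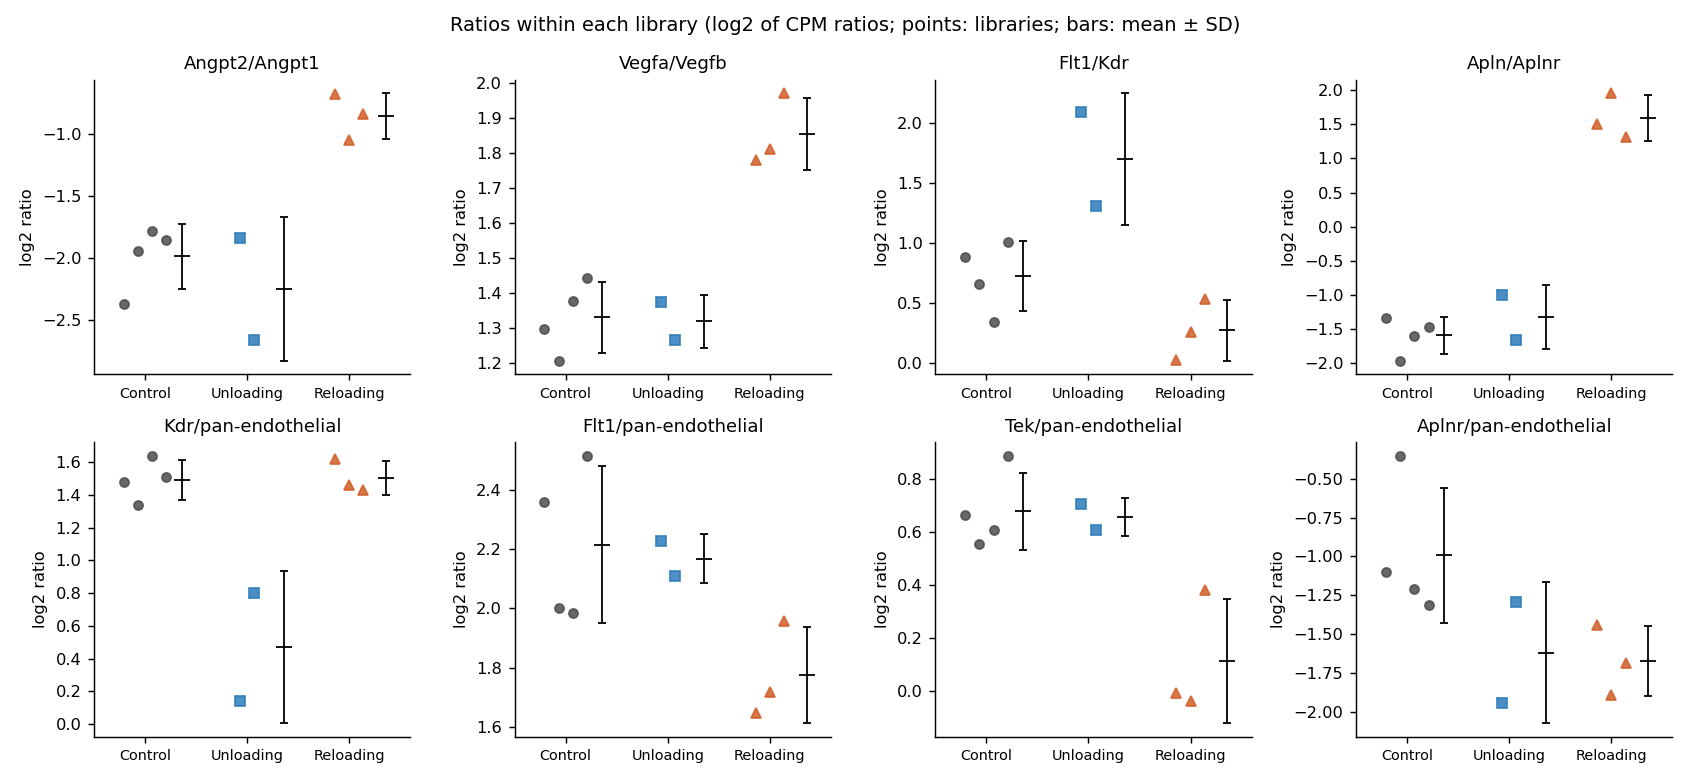
Log2 ratios of CPM within each library (vertical axes, which do not start at 0) for 4 pairs of the genes in the upper row and for 4 receptors against the mean of the 19 pan-endothelial genes in the lower row, with mean and SD in black. Kdr relative to pan-endothelial genes lies at 0.14 and 0.80 in Unloading and at 1.34 to 1.64 in Control and Reloading.

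Around these 10 genes, 90 of 96 genes on 8 lists of the pathway and the endothelium could be tested. In Reloading against Unloading 51 of them were higher and 9 lower, in Unloading against Control 2 were higher and 5 lower, and in Reloading against Control 51 were higher and 7 lower (53 and 12 with the description numbers as a replicate block). As shares these were 56.7% and 10%, 2.22% and 5.56%, and 56.7% and 7.78%, beside the percentages of all genes given above for each comparison. The lists were chosen with results of these data known, so the counts describe them. Values of single genes on these lists are log2 fold changes.

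Of 10 tested co-receptors, lymphatic ligands and signal carriers of these pathways, 8 were higher in Reloading than in Unloading (median 0.99) and 7 higher than in Control (median 0.70), and none passed between Unloading and Control. Nrp2, a co-receptor of VEGF, had a log2 fold change of 1.34 against Unloading and 1.22 against Control. Vegfc, a ligand of lymphatic growth, rose by 1.28 against Unloading on a low level (group means of 0.722 CPM in Unloading and 1.71 CPM in Reloading). Nos3, the endothelial nitric oxide synthase, rose by 1.25 and 1.27, and Flt4, the receptor of VEGF-C, by 1.10 against Control. Angpt4, Apela and Sh2d2a had too few counts to be tested.

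Pan-endothelial genes were higher in Reloading for 18 of 19 against Unloading (median 0.80) and for 17 of 19 against Control (median 0.78). Among them Eng, a co-receptor of transforming growth factor beta, rose by 1.30 on the log2 scale against Unloading, Mmrn2, an extracellular matrix protein of vessels, by 1.27, and the transcription factor gene Sox18 by 1.27. Against Control, Sox18 rose by 1.35, Tal1 by 1.12 and Pecam1, which encodes the junction protein CD31, by 1.05. In Unloading only Mmrn2 passed, lower by a log2 fold change of -0.60, and the list median was 0.02. Their summed level was 251 to 308 CPM in Control, 271 to 281 CPM in Unloading and 444 to 528 CPM in Reloading.

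Of 14 tested tip cell and sprouting genes, 8 were higher and none lower in Reloading in either comparison, with medians of 0.68 against Unloading and 0.57 against Control. Pdgfb, which recruits pericytes, rose by 1.61 and 1.39, Plvap, a protein of endothelial fenestrae, and Unc5b, a netrin receptor, rose by 1.60 and 1.48 against Unloading, and Adm, the precursor of adrenomedullin, and Notch1 rose by 1.62 and 1.19 against Control. Plvap was the single gene of this list that changed in Unloading (-0.74). Esm1 and Dll4, both typical of tip cells, did not pass in Reloading against Unloading, with 0.67 (adjusted p 0.363) and 0.47 (adjusted p 0.108). Hey1 did not pass either (0.25, adjusted p 0.34). The estimates of Cxcr4 (-0.47, adjusted p 0.212), Hes1 (-0.25, adjusted p 0.31) and Jag1 (-0.20, adjusted p 0.243) were negative and did not pass.

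Among 6 genes of shear response and quiescence, 4 were higher in Reloading in each comparison. Against Unloading, Edn1, the precursor of endothelin, rose by 1.54, the shear-induced factor Klf2 by 1.34 and Thbd, thrombomodulin, by 0.92, whereas Procr fell by 0.50 on the log2 scale. Against Control, Edn1 rose by 1.26, Klf2 by 1.10 and Klf4 by 1.02, and Procr was the gene that passed in Unloading, with 0.51.

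The HIF pathway and its common targets did not move in 1 direction. Of 19 genes, 3 were higher and 8 lower in Reloading than in Unloading (median -0.17), and 4 were higher and 7 lower than in Control (median -0.05). Egln3, a HIF prolyl hydroxylase, rose by 1.75 and 1.76, P4ha1, a collagen prolyl hydroxylase, by 0.95 against Unloading, and Car9, a carbonic anhydrase, by 0.99 against Control. Hif3a fell by 1.49 on the log2 scale against Unloading on a low level (group means of 1.73 CPM in Unloading and 0.572 CPM in Reloading). Pdk1, a kinase that restrains pyruvate oxidation, fell by 0.66 against Control. In Unloading, Arnt passed as higher (0.39) and Pdk1 as lower (-0.37). With scaling by totals alone, 1 of the 90 listed genes in place of 9 was lower in Reloading than in Unloading.

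Of 4 genes of the PGC-1alpha and ERRalpha axis, which controls Vegfa in muscle independently of HIF, 2 were higher in Reloading than in Unloading, Ppargc1b by 0.58 and Esrra by 0.27 on the log2 scale. Esrra, the gene of ERRalpha, was lower in Unloading (-0.41), and Ppargc1b was higher in Reloading than in Control (0.40). Ppargc1a itself gave 0.03 (adjusted p 0.875) between Reloading and Unloading.

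Genes listed as secreted inhibitors and other growth factors also included some that rose. Of 9 listed as inhibitors, 4 were higher in Reloading than in Unloading and 6 higher than in Control, with medians of 0.88 and 0.75. Thbs1, thrombospondin 1, rose by 2.33 and 2.61, and Adamts1 by 1.31 against Unloading. Vash2, a vasohibin mainly known to promote vessel growth although it was put on this list, rose by 2.13 and 1.84. Cxcl10 rose by 1.61 against Control on a low level (group means of 0.297 CPM in Control and 0.996 CPM in Reloading). Adamts1 was lower in Unloading (-0.71). Of 9 tested other angiogenic ligands, 4 were higher in each comparison of Reloading, among them the EGF receptor ligand Hbegf (2.21 and 2.18), Fgf1 (1.44 and 1.36) and Tgfb1 (1.35 and 1.15).

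**Figure D5:**
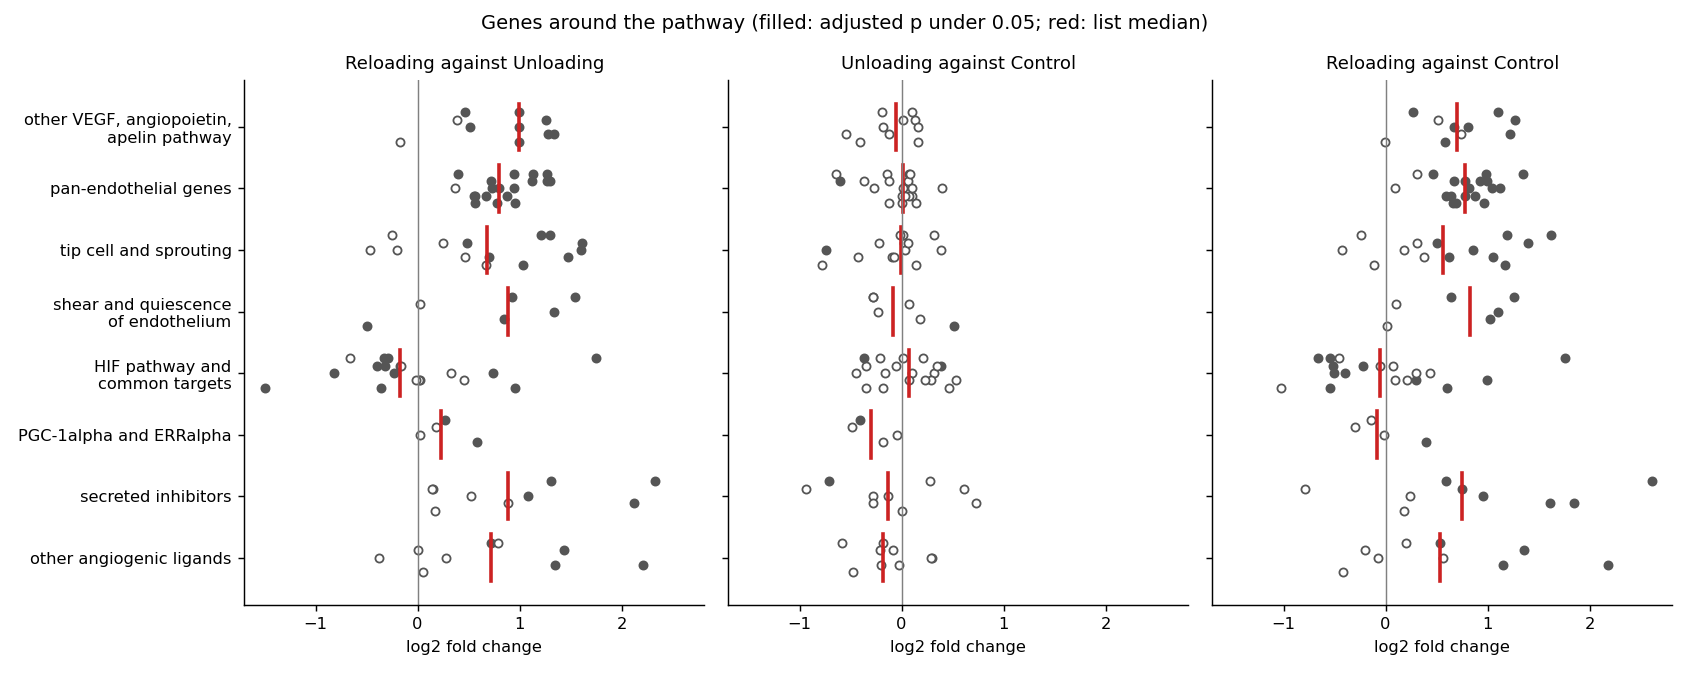
Log2 fold changes (horizontal axes) of the 90 tested genes on the 8 lists (rows) in the 3 comparisons (panels), where filled circles passed an adjusted p of 0.05, open circles did not and red lines mark list medians. Pan-endothelial genes lie to the right of 0 in both comparisons of Reloading (medians 0.80 and 0.78), and the HIF list spreads on both sides (-0.17 and -0.05).

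Markers of other cell types moved with the same libraries. In Reloading against Unloading, 9 of 10 macrophage markers were higher, with a summed level of 80.6 to 93.7 CPM in Control, 82.8 to 84.5 in Unloading and 160 to 180 in Reloading. A large part of this rise was Cd68, with group means of 3.05 CPM in Unloading and 45.9 CPM in Reloading, and Cd163 did not pass. Pericyte and smooth muscle markers were higher for 8 and lower for 2 of 11, while their sum overlapped between groups (618 to 677 CPM in Control, 666 to 718 in Unloading and 644 to 690 in Reloading). The 2 lower markers, Rgs5 and Abcc9, were the most abundant of the list and dominate the sum. Their group means were 323 and 240 CPM in Unloading and 264 and 178 CPM in Reloading. Which cells of whole muscle held the Rgs5 and Abcc9 transcripts was not tested. Of the 8 muscle fibre markers 7 were lower. No marker of these 3 lists was at 0 in any library, and their part in the values of the 10 genes was not tested.

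In Reloading against Unloading, 2 of 5 lymphatic markers were higher, 2 of 6 fibroblast markers were higher and 2 lower, 1 of 4 adipocyte markers was higher, and none of 5 erythrocyte, 6 skin and 2 tested neutrophil markers passed. The summed level was 13.9 to 20.3, 19.1 to 19.4 and 24.1 to 30.6 CPM for lymphatic markers and 458 to 664, 538 to 549 and 604 to 767 CPM for fibroblast markers in Control, Unloading and Reloading. Of the 7 neutrophil markers up to 5 were at 0 in a library, and their sum was 0.357 to 5.75, 1.15 to 1.20 and 1.74 to 4.77 CPM. Adipocyte markers summed to 14.8 to 44.1, 25.3 to 36.0 and 38.3 to 38.9 CPM and erythrocyte markers to 52.0 to 173, 67.3 to 120 and 57.3 to 139 CPM. The lymphatic, fibroblast and adipocyte sums of Unloading and Reloading did not overlap, and the erythrocyte sums of all groups did.

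The genes whose log2 CPM followed a member most closely over the 9 libraries were looked up among 9872 or 9873 other genes with a mean log2 CPM of at least 2, as a description, since the libraries share their 3 groups. For Apln these were Tpm4, Tnfrsf12a and Ube2z, each with a Pearson r of 0.996, and 942 genes had an r over 0.9. Angpt2 was followed by Igf2r (0.986), Slc35e4 (0.984) and Septin8 (0.983), with 549 genes over 0.9. For Vegfa the closest were Cluh (0.974), Gm9276 (0.953) and Tbrg4 (0.953), with 43 genes over 0.9.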

How the data were processed

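RNA of 9 gastrocnemius muscles was sequenced after poly(A) enrichment. Per the submitters' processing notes and the study's methods, the authors aligned reads with STAR 2.7.3a to GRCm38.p6 and deposited counts of read pairs per gene (featureCounts 2.0.3, unstranded, Ensembl release 102 per the file header), although the methods describe single reads. The deposited Length column, of unit other, gives summed exon bases. The authors' DESeq2 tables hold a mean signal, shrunken log2 fold changes and p-values, and only their pairs of gene ID and symbol were used. Depth was 9252443 to 19612101 pairs per library, which limits precision at low counts.

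Tests on the counts used edgeR 4.0.16 and limma 3.58.1 in R 4.3.3. Genes passed filterByExpr (minimum count 10, minimum total 15), libraries were scaled by TMM, and 1 quasi-likelihood fit over all 9 libraries with group as the only term gave 3 two-sided comparisons with Benjamini-Hochberg adjustment over all 14851 genes and a threshold of 0.05. SE were derived from the F statistic. Likeness used log2 CPM with a prior count of 2 and is given for Apln, Angpt2 and Vegfa, and the result for Tek, which the rule also covered, is not reported here. Deviations from the group means of libraries with the same description number correlated at 0.143 to 0.361 in the 3 pairs of Control and Reloading. The labels do not say what the number marks. Libraries were not paired in the fit or in the permutation tests, and the description number served only as a block in an alternative. The other comparisons had fewer than 3 pairs. The fit was tested on simulated data. Alternatives included DESeq2 1.42.0, other scalings, no filter, replicate numbers as a block and each library left out. Groups came from the labels, which do not state that libraries of a group are separate animals, so p-values measure the spread between these libraries. The members and lists were chosen with earlier results of these data known. All 10 members were named, and from each other list at most the 3 passing genes with the largest change per comparison. As exceptions, Procr, Esm1, Dll4, Hey1, Cxcr4, Hes1, Jag1, Ppargc1a, Rgs5, Abcc9 and Cd163 were chosen after their values were seen. Promoter sequences were read from RefSeq and motifs searched with Python 3.11.15.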

Additional observations from a re-analysis of the deposited data

How the results depend on the processing

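Over 18 alternatives, the changes of Vegfa, Kdr, Angpt2 and Apln between Reloading and Unloading kept their direction and passed in each, as did those of Apln, Angpt2, Pgf, Kdr and Flt1 between Reloading and Control. Of the members' fold changes recomputed under these alternatives, 504 kept direction and side of the threshold, 14 newly passed, 10 no longer passed and 12 changed sign. Scaling by totals alone gave 8 members higher in Reloading against Unloading and 8 higher and 0 lower against Control. In Reloading against Unloading it gave 1 listed gene lower and 0.15 for Angpt1. The shares of all genes given above belong to the fit described there and not to these alternatives. Without a filter on low counts, 4 listed genes were higher and 11 lower in Unloading. DESeq2 called 0 members higher in Unloading (Pgf, adjusted p 0.0957), as did the fit without Control 2 and Reloading 1, added after seeing the data, which also gave -0.10 for Kdr relative to pan-endothelial genes in Reloading against Control. Leaving out 1 library at a time, members higher in Unloading ranged from 0 to 1 and lower from 0 to 3, and listed genes higher from 0 to 3 and lower from 0 to 7. In these fits, estimates that had not passed crossed 0 for Vegfb in Reloading against Unloading (-0.10 to 0.33), for Flt1 (-0.18 to 0.013), Angpt2 (-0.46 to 0.23) and Tek (-0.16 to 0.024) in Unloading and for Aplnr in Reloading against Control (-0.18 to 0.36). Log2 ratios near 0 crossed it too, in Unloading for Vegfa to Vegfb (-0.052 to 0.027) and for Flt1 (-0.12 to 0.053) and Tek (-0.062 to 0.049) relative to pan-endothelial genes, for Kdr in Reloading against Control (-0.049 to 0.059) and for Aplnr in Reloading against Unloading (-0.17 to 0.054). With the median of the pan-endothelial genes, Flt1 (0.23) and Tek (0.26) changed sign in Unloading. The causes were not tested.

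Deviations of same-numbered libraries correlated at -0.201 to 0.0752 by title number, which is no sign of pairs. By description number they correlated at 0.143 to 0.361 between Control and Reloading and at 0.0172 to 0.0752 in the other libraries of equal number. The highest value was that of Control 2 and Reloading 1, the libraries with skin transcripts. With a replicate block by title number 6 members were higher in Reloading against Unloading, and estimates of Tek in Unloading (0.020) and Aplnr in Reloading against Control (-0.10) changed sign. With the block by description number 6 were higher, 4 members were lower in Unloading, 12 listed genes were lower in Reloading against Control, and Aplnr there was -0.00096. Both Unloading libraries limit that comparison, since leaving out either leaves 1 library whose spread is assumed to equal that of the other groups, and ratios then have no test. Low counts of Pgf, Apln and Angpt2 outside Reloading limit the precision of their folds.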
